A study of Mus musculus with 2 samples.

Results

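The Hox cluster genes encode the homeodomain transcription factors that give position along the body axis its identity. In blood, several of them, with Hoxa9 and Hoxb4 the best studied, act in stem and progenitor cells, and their transcripts fall as cells mature along the myeloid lineage. Their proteins bind DNA together with TALE homeodomain partners of the Meis, Pbx and Pknox families. In most adult cells Polycomb complexes keep unused Hox genes silent and trithorax-type complexes around Kmt2a (MLL) keep used ones active.

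The members were chosen as every probe set whose platform annotation holds exactly 1 gene symbol and whose symbol is Hoxa, Hoxb, Hoxc or Hoxd followed by digits alone. This gave 48 probe sets for 33 genes, out of 45037 probe sets and 18193 genes named in this way. The mouse has 39 genes of this name in the RefSeq table, and the other 6 are not analysed here. All 33 Entrez IDs were found in that table. The values are from the array of ID8-induced MDSC, that is, myeloid-derived suppressor cells, an immature myeloid population named for its inhibition of T cells.

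These were C57BL/6 mouse bone marrow cells taken from the femur, kept in medium with 5% FBS and cultured for 4 days in the lower chamber of a transwell plate. Above them were cells of ID8 (also written 1D8 in the labels), a mouse ovarian surface epithelial tumour line: 50000 tumour cells over 2000000 marrow cells. The title speaks of tumour supernatant and the protocol of co-culture. Neither label gives the age or number of the mice, and the second sample, control bone marrow cells of the same strain, bone and stated CD11b+Gr1+ phenotype, carries no tumour cell entry. Each group was 1 array, so the values have no replicate error and nothing was tested.

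The control column was not used for any gene. Its values ran down the probe set list in 2 interleaved descending sequences, with 0 rises from row to row among values at or above its last value and 0 among those below, against 10622 and 11804 in the ID8-induced column. No fold change can be formed from it, and the signals below carry no statement on the effect of the tumour cells on any Hox gene. All 10 measured neutrophil and MDSC markers lay at or above the 90th percentile in the ID8-induced array, where 14.8% of all genes lay. They ran from 2374.74 for Itgam, which encodes CD11b, to 24856.67 for S100a9. Ly6g, Ly6c1 and Ly6c2, the genes of the Gr1 antigens, are not analysed here.

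Hox signals in ID8-induced MDSC lay low on the scale of the array, with none among its strongest probe sets. The signal is the MAS5 intensity of a probe set on a linear scale, and a gene is represented by its brightest probe set. The floor is the 40th percentile of the array, a signal of 68.77; no detection calls were used, so it separates low from higher signals and does not show expression. Of the 33 Hox genes 13 were above the floor, against 71.3% of all genes. In bulk RNA, few cells with a transcript and little transcript per cell cannot be told apart. Only Hoxa5 was at or above the 75th percentile, where 34.3% of all genes lay, and 0 Hox genes reached the 90th, where 14.8% lay.

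The Hox median was a signal of 57.96, at percentile 33.75 of the array, and the median of all genes was 125.73, at percentile 61.4. The Hox genes ranged from 16.19 for Hoxc8, percentile 4.54, to 272.6 for Hoxa5, percentile 79.67. Of the 13 above the floor, 9 had less than 2 times its value, and Hoxa5, Hoxc10, Hoxa3 and Hoxc9 had more. Different probe sets hybridise with different strength, so the order of genes by signal is not an order of transcript abundance. With 1 array, no neighbours in this order can be said to differ.

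The number of probe sets matters for these counts, since the brightest of several is taken. Among Hox genes with 1 probe set 6 of 22 were above the floor, against 57.7% of all genes with 1 probe set. Among those with several it was 7 of 11, against 85.2%. Counted by probe set, 17 of 48 Hox probe sets were above the floor, against 63.5% of all probe sets with 1 symbol. The Hox share was thus below the share of all genes in each of these ways of counting.

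**Figure D1:**
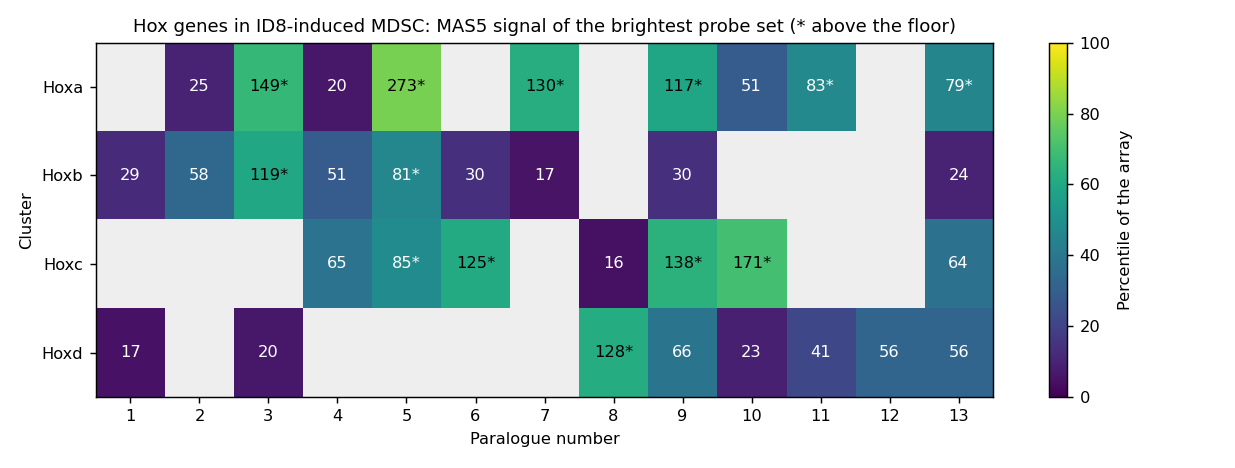
Signal of each measured Hox gene in ID8-induced MDSC, by cluster (rows) and paralogue number (columns). The number is the MAS5 signal of the brightest probe set, an asterisk marks signals above the floor of 68.77, the colour is the percentile of the array and grey cells are not measured under the rule or do not exist in the mouse; Hoxa5 at 272.6 is the 1 cell above the 75th percentile.

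Promoter windows from RefSeq, 250 bases before to 50 after a gene's start (GRCm38.p6), were found for 19 of the 33 genes, 21 windows in all. They are shown because CpG-rich starts, which the rule did not use, are where Polycomb and trithorax complexes bind. Below are those of Hoxa5, the gene with the highest signal, of Hoxd1, with a signal of 16.52 far below the floor, and of Hoxa9. Each is 5′ to 3′ on the gene's own strand, with CpG dinucleotides in capitals. Hoxa5 is at chr6:52204538-52204837 on the minus strand, Hoxd1 at chr2:74762730-74763029 on the plus strand and Hoxa9 at chr6:52227321-52227620 on the minus strand.
Hoxa5: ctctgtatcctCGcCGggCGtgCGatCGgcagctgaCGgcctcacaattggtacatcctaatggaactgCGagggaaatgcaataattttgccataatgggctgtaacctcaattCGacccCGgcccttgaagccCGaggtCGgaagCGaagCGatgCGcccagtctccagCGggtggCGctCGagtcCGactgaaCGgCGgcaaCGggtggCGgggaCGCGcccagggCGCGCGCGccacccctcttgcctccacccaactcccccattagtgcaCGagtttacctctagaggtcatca
Hoxd1: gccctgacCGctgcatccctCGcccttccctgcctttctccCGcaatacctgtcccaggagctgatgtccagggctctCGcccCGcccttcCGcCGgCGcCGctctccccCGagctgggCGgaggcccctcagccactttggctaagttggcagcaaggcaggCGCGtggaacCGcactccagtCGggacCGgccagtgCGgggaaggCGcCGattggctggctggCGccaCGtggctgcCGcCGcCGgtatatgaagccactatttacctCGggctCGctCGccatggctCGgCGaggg
Hoxa9: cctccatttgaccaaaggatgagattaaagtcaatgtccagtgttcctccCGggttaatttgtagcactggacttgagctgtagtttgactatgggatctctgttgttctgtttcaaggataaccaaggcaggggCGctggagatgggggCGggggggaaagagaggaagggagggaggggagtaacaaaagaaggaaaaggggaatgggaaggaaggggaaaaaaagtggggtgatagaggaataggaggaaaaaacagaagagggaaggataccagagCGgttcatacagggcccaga
Hoxa5 and Hoxd1 have the same number of CpG dinucleotides, 29, with signals of 272.6 and 16.52. The other Hoxa5 probe set read 47.1, below the floor, so its place above the floor rests on 1 probe set. The Hoxa9 window has 4, with a signal of 117.38. The median was 15 over the 21 Hox windows and 7 over all 32851 windows of this length, and it was 15 over the 7 windows of Hox genes above the floor and 17 over the 14 of those below. It was 18 over 71 windows of other developmental homeobox genes and 2 over 30 of olfactory receptors, so a CpG-rich start is not particular to Hox genes. The CpG medians of Hox genes above and below the floor were thus close to each other. All 7 windows above the floor but that of Hoxd8 are from Hoxa genes, since no Hoxb or Hoxc gene above the floor has a window. Hoxa10 and Hoxd11 give 2 windows each to the 14 below. The motif TGATTNAT, a joint Pbx-Hox recognition sequence, was searched on both strands and was in 2 of the 21 Hox windows (Hoxa2 and Hoxd11), or 9.52%, and in 3.22% of all windows. It was in 3 of 30 olfactory receptor windows (10.0%) and 3 of 71 of the other homeobox genes (4.23%), and the Hox matches were both in genes below the floor. A match is a description of letters and no evidence of binding.

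The Hoxa cluster had 6 of 9 measured genes above the floor, against 71.3% of all genes (57.7% with 1 probe set and 85.2% with several). Hoxa5, which in human marrow progenitors favours myeloid over erythroid fate, read 272.6 on a probe set of suffix x, a letter that marks probes shared in part with other sequences, and 47.1 on its other probe set, below the floor. Its position at the top therefore rests on 1 probe set of the kind open to cross-hybridisation. Hoxa3, needed for the thymus and parathyroid, read 149.3, 128.63, 40.35 and 19.87 on its probe sets, so 2 were above the floor and 2 below. Hoxa7, a partner of Hoxa9 in progenitors and in MLL-rearranged leukaemia, read 129.81 on its 1 probe set. Hoxa9, a regulator of stem cells and myeloid progenitors and a driver of acute myeloid leukaemia, read 117.38 and 81.53. It was 1 of 2 Hox genes whose several probe sets were all above the floor. Hoxa11 and Hoxa13, genes of the limb and urogenital tract, read 83.06 and 79.04 on 1 probe set each. Hoxa10, which acts with Hoxa9 in myeloid progenitors, read 51.05 and 27.39, below the floor on both. Hoxa2, the hindbrain and second arch gene, read 24.79. Hoxa4 read 20.01, and 4.56 on a probe set of suffix x.

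The Hoxb cluster had 2 of 9 above the floor, against 71.3% of all genes (57.7% with 1 probe set, as most Hoxb genes have, and 85.2% with several). Hoxb3, expressed in blood stem cells, read 119.4 on 1 probe set and 43.3 on the other. Hoxb5, which marks long-term stem cells in mouse marrow, read 81.09. Hoxb4, which expands blood stem cells when supplied in excess, read 51.39 and 48.48. Its probe sets were close to each other and both below the floor. Hoxb2 read 57.96, Hoxb6 30.26, Hoxb9 30.02, Hoxb1 28.53, Hoxb13 24.39 and Hoxb7 17.43. Hoxb1 patterns the hindbrain and Hoxb13 is a gene of the prostate and tail. The median of the cluster was percentile 13.68, against percentile 47.2 for Hoxa. More Hoxa than Hoxb genes have several probe sets, of which the brightest is taken, and the difference was not tested.

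The Hoxc cluster had 4 of 7 above the floor (57.14%), against 71.3% of all genes. Most Hoxc genes have 1 probe set, and among all such genes the share was close to this, 57.7% (85.2% with several). Hoxc10, a gene of the lumbar spinal cord and hindlimb, read 171.4 on its 1 probe set, and Hoxc9, of the thoracic cord, read 138.28 on 1. Neither has a second probe set to check it. Hoxc6 read 124.76, 104.38 and 75.78, all above the floor, which made it, with Hoxa9, the other gene whose several probe sets all passed. Its 104.38 was on a probe set of suffix x, and its 75.78 was close to the floor. Hoxc5 read 85.01, 32.95 and 18.96, so 1 of 3 passed. Hoxc4, expressed in lymphoid cells, and Hoxc13, a gene of hair and nail, were just under the floor at 65.13 and 63.95. Hoxc8, a gene of the thoracic skeleton, gave the lowest Hox signal, 16.19. The cluster median was percentile 48.07.

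The Hoxd cluster had 1 of 8 above the floor, against 71.3% of all genes (57.7% with 1 probe set, as most Hoxd genes have, and 85.2% with several). That gene, Hoxd8, read 127.61 on 1 probe set and 30.59 on the other, which has the suffix s for probes common to several transcripts. Hoxd9 was just under the floor at 66.26. The genes that shape the limb and digits were all below it: Hoxd10 read 23.16, Hoxd11 40.94, Hoxd12 56.43 and Hoxd13 56.38 and 47.39. Hoxd3 read 19.68 and Hoxd1 16.52. The cluster median was percentile 27.14.

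By paralogue number, 2 of 7 anterior genes (1 to 3) and 6 of 12 central genes (4 to 8) were above the floor. Of the posterior genes (9 to 13) it was 5 of 14, and of all genes 71.3% (57.7% with 1 probe set and 85.2% with several). The median percentiles of the anterior, central and posterior genes were 12.4, 42.16 and 34.98, against 61.4 for all genes. Number 5 was the 1 paralogue number with every measured member above the floor, Hoxa5, Hoxb5 and Hoxc5, at 272.6, 81.09 and 85.01. For Hoxa5 and Hoxc5 that holds on 1 of their probe sets. Number 9, the group of Hoxa9, had 2 of 4, Hoxc9 at 138.28 and Hoxa9 at 117.38, with Hoxd9 at 66.26 and Hoxb9 at 30.02. Number 4 had 0 of 3, and numbers 1 and 2 had 0 of 2 each. Among neighbours along the chromosome, Hoxa5, Hoxa7 and Hoxa9 were all above the floor, with Hoxa6 between them not analysed here. Also above the floor were the adjacent pairs Hoxa11 and Hoxa13, Hoxc5 and Hoxc6, and Hoxc9 and Hoxc10.

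Probe sets of the same gene were the one check within the array. Of the 11 Hox genes with several, 2 had all above the floor, 5 had probe sets on both sides of it and 4 had all below. Of all 9010 genes with several, 1332 had all below. The shares of all genes for the first 2 counts were not formed, so these counts are not read as particular to Hox genes. The ratio of the brightest to the dimmest had a median of 2.758 and ran from 1.06 for Hoxb4 to 7.514 for Hoxa3. Over all 9010 genes with several probe sets the median ratio was 3.008. The 5 with probe sets on both sides were Hoxa3, Hoxa5, Hoxb3, Hoxc5 and Hoxd8. Their place above the floor depends on which probe set is read.

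**Figure D2:**
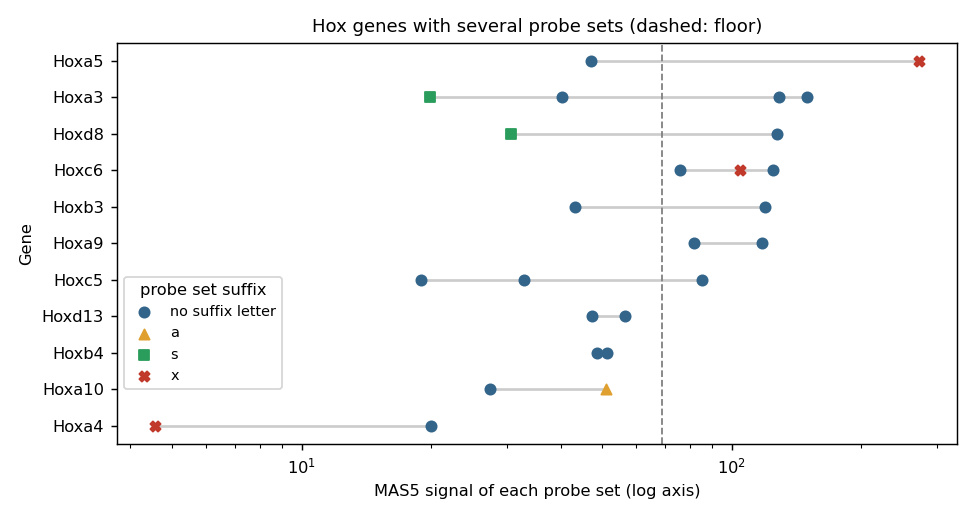
MAS5 signal of every probe set (log axis) for the 11 Hox genes with several, coloured and shaped by probe set suffix; the dashed line is the floor of 68.77 and a grey bar joins the probe sets of a gene. Hoxa9 and Hoxc6 lie wholly to the right of the floor, Hoxa4, Hoxa10, Hoxb4 and Hoxd13 wholly to the left.

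Hox signals overlapped in range with those of olfactory receptor genes. The 38 olfactory receptor genes named alone, a family of the nasal epithelium picked as a reference after the Hox values were seen, had 13 members above the floor, a median signal of 47.84 and a range from 20.51 to 181.68. Their median was percentile 26.77, against percentile 33.75 for Hox genes. By probe set, 15 of 43 olfactory receptor probe sets (34.88%) and 17 of 48 Hox probe sets (35.42%) were above the floor. A group of 84 other developmental genes with homeobox or paired-box domains, such as the Dlx, Lhx, Nkx and Pax genes, was read too. It had 45 above the floor and a median at percentile 44.9. Of all genes 71.3% were above the floor, with a median at percentile 61.4. Among genes with 1 probe set, as most of the olfactory receptors have, the share was 57.7%. The strongest of the 84 were Nkx2-9 at 348.07, Vax2 at 205.55, Nkx2-3 at 198.99 and Dlx3 at 198.6. These differences between groups of genes come from 1 array and were not tested.

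The cofactors of Hox proteins were mixed, with 6 of 8 measured TALE genes above the floor, near the 71.3% of all genes. Among all genes with several probe sets, as most of these have, the share was 85.2%. Pbx2 read between 291.05 and 1509.04 on its 3 probe sets. Pknox1 read between 135.9 and 490.81 on its 3, so both were above the floor on every probe set. Meis1, the partner of Hoxa9 in stem cells and leukaemia, read 90.84 on its brightest of 3 probe sets and 35.31 on its dimmest. Pbx3, another partner of Hoxa9 in leukaemia, read 117.73 and 14.68. Meis3 and Pbx4 read 91.31 and 73.91, and Pknox2 and Meis2 lay below the floor at 59.27 and 39.53.

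Genes of the machinery that sets Hox activity lay mostly above the floor, with median percentiles of 80.25 on the activating and 80.31 on the Polycomb side. On the activating side 15 of 18 passed the floor, against 71.3% of all genes, and 10 of 18 the 75th percentile, against 34.3%. Most of these 18 have several probe sets, and of all such genes 85.2% passed the floor, a share close to 15 of 18. Of the 9010 such genes 4190 reached the 75th percentile, and their median was percentile 72.61, nearer to these values than that of all genes. Kdm6b, a demethylase that removes the Polycomb mark, read 1828.19 (403.83 on its dimmest probe set). Mllt10, Aff4 and Aff1, elongation-linked partners of MLL fusions, read 853.71, 789.61 and 725.52, but Aff4 read 6.22 on its dimmest. Kmt2a itself read 704.55 and 191.57. Below the floor were Mllt3 at 62.13 and the caudal genes Cdx1 at 48.56 and Cdx4 at 37.68, which switch on Hox genes in the embryo and in embryonic blood. The third caudal gene, Cdx2, read 116.39 on 1 probe set and 50.37 on the other, on both sides of the floor.

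All 20 measured Polycomb genes were above the floor on their brightest probe set and 11 of the 20 reached the 75th percentile, against 71.3% and 34.3% of all genes. Of all genes with several probe sets, as most of these have, 85.2% were above the floor. Of these 9010 genes 4190 reached the 75th percentile, with a median at percentile 72.61. Suz12, a core subunit of the complex that deposits the repressive histone mark, read 1821.35, and Rnf2, the ubiquitin ligase of the other complex, 1561.46. Aebp2, an accessory subunit, read 1317.78 and Ezh2, the methyltransferase, 700.13. Eed, the third core subunit, read 477.04 on 1 probe set and 30.74 on the other. No value here ties the level of these genes to that of the Hox genes.

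Stem and progenitor markers, beside which Hox genes are usually read in marrow, passed the floor in 13 of 13 measured cases, with signals from 89.8 to 1543.9. Of all genes 71.3% passed, and 85.2% of those with several probe sets. On their dimmest probe sets Sox4, Mecom and Hlf read 27.89, 17.47 and 68.57, below the floor, while the other markers stayed above it. Kit and Cd34, the surface markers of progenitors, read 103.31 and 112.01, under the median of all genes, 125.73. Markers of other cells that could carry Hox transcripts were read too. Fibroblast and stromal markers passed in 5 of 12 cases (27.44 to 736.54) and markers of epithelium and mesothelium, the tissue of origin of ID8, in 9 of 13 (21.57 to 239.17), against 71.3% of all genes. Among the stromal markers Fn1 read 736.54 and Col1a1 270.02, while Pdgfra at 47.99 and Thy1 at 27.44 were below the floor. Among the epithelial ones Cldn3 read 239.17, Upk1b 170.48, Epcam 158.91 and Krt8 106.89, while Wt1 at 52.31 and Cdh1 at 21.57 were below it. On their dimmest probe sets Upk1b, Epcam, Krt8 and Col1a1 read 3.76, 58.32, 46.62 and 34.71, below the floor. Col1a2, Cxcl12, Lepr, Upk3b and Pax8 fell below it too, at 27.56, 25.92, 9.7, 42.69 and 45.21. Cldn3 and Fn1 stayed above it, at 91.55 and 75.17. Endothelial markers passed in 3 of 6 cases (24.25 to 2096.33) and B lineage markers in 5 of 5 (78.12 to 261.18), against the same 71.3%. T and NK markers passed in 5 of 7 (62.28 to 416.95). This count (71.43%) and the epithelial one (69.23%) were both close to the share of all genes. On their dimmest probe sets the B lineage markers Ms4a1 and Pax5 read 19.23 and 40.23, below the floor. Of the T and NK markers Cd8a and Cd4 fell below it, at 21.19 and 66.01, and Zap70 stayed above at 107.05. The part of these cell types in the Hox signals was not tested.

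**Figure D3:**
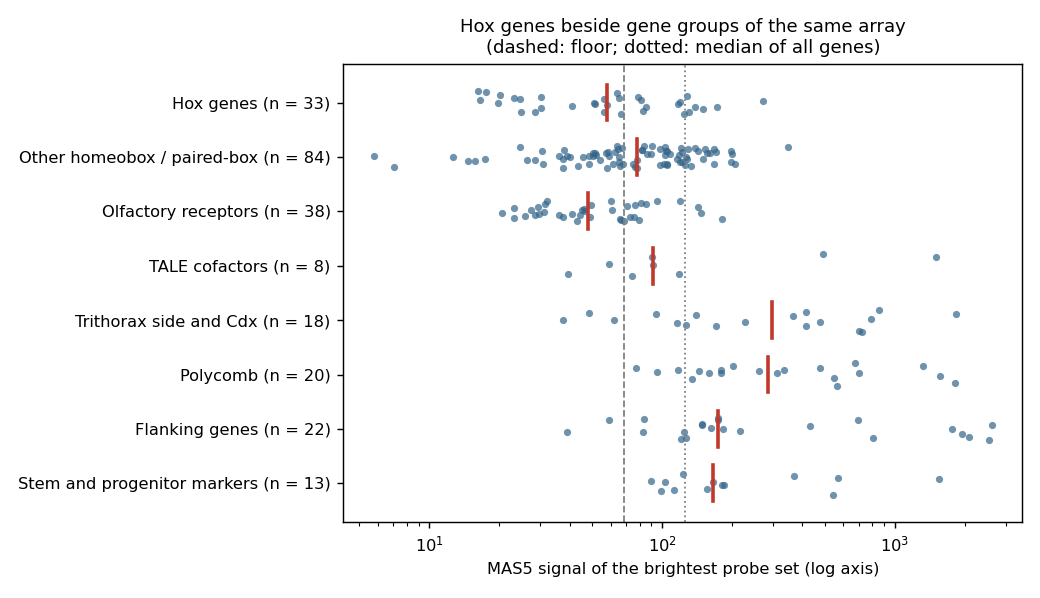
MAS5 signal of the brightest probe set (log axis) for the 33 Hox genes and other groups of genes on the same array, 1 point per gene, with the group median as a red bar, the floor of 68.77 dashed and the median of all genes, 125.73, dotted. The Hox median of 57.96 lies left of the floor, next to that of the olfactory receptors at 47.84, and the Polycomb median at 284.94 lies to the right of both lines.

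The genes that border the Hox clusters were mostly above the floor, whereas 13 of the 33 genes inside were, a difference seen on 1 array and not tested. Of the 24 protein-coding genes nearest to the clusters, 3 on each side, 22 were measured and 20 were above the floor, with a median at percentile 70.38. Of all genes 71.3% were above it, 85.2% of those with several probe sets, and the median was percentile 61.4. Next to the anterior end of Hoxa, Skap2, an adaptor of leukocyte adhesion signalling, read 1757.56 and Snx10, a sorting nexin of osteoclasts and macrophages, 2529.74; their dimmest probe sets read 358.41 and 373.34. On the other side of the cluster Evx1, a homeobox gene, read 59.3, and beyond it Hibadh 431.12 and Tax1bp1 2604.36. Evx2, its counterpart beside Hoxd13, read 39.06, and the 2 Evx genes were the only measured bordering genes below the floor. Beyond Evx2, Lnpk read 148.17 and Atp5g3, an ATP synthase subunit gene, 2085.82, and on the anterior side of Hoxd, Mtx2 read 183.2.

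Around Hoxb, Ttll6 read 124.58, Calcoco2 82.97 and Atp5g1 148.84 beyond Hoxb13. Skap1, Snx11 and Cbx1, beyond Hoxb1, read 120.8, 173.54 and 694.96. Around Hoxc, Calcoco1 read 173.78, Atp5g2 804.84 and Atf7 126.38 on the posterior side, and Smug1 83.58, Cbx5 215.53 and Hnrnpa1 1951.06 on the anterior side. Cbx3, the last of the bordering genes of Hoxa, read 161.85. Some bordering genes had probe sets on both sides of the floor, such as Skap1 and Atp5g1, whose dimmest read 17.64 and 25.69.

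**Figure D4:**
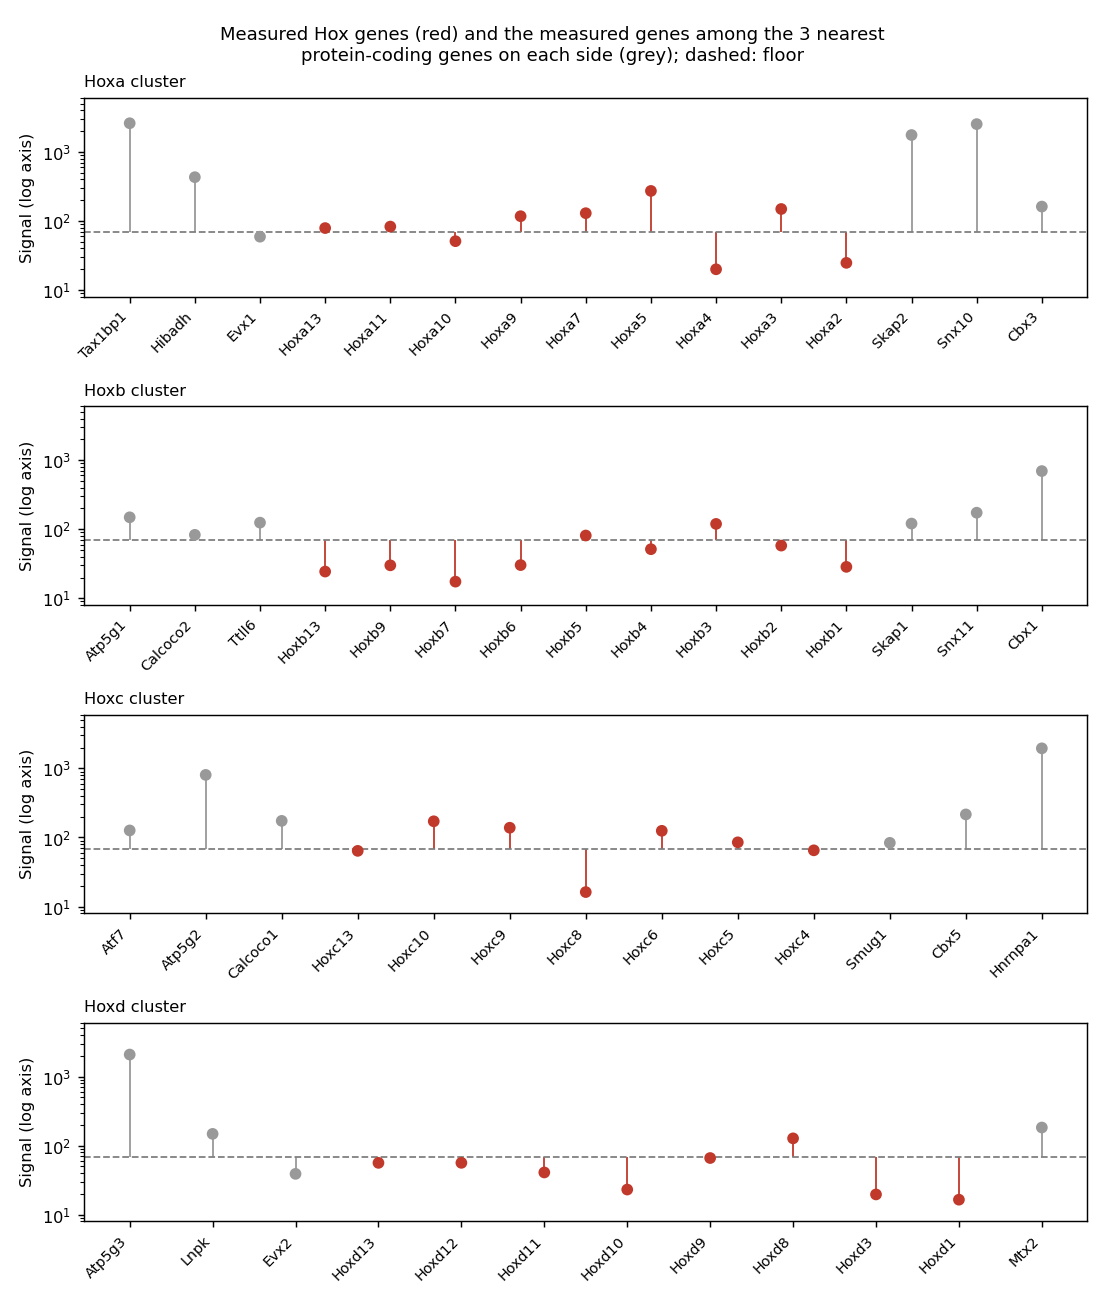
MAS5 signal of the brightest probe set (log axis) along each cluster in gene order, with measured Hox genes in red from the highest to the lowest paralogue number and the measured bordering genes in grey; stems start at the floor of 68.77. Grey points stand above the floor except Evx1 at 59.3 and Evx2 at 39.06, while 20 of the 33 red points lie below it.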

How the data were processed

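RNA of 2 samples was hybridised to 1 Affymetrix array each, and the deposited intensity values are MAS5 signals on a linear scale, per the submitters' processing notes. The sources used here do not give the version or scaling target of MAS5, or its detection calls. The control column was read only to count rises from row to row. Per the labels' protocols, biotinylated cRNA came from 6 ug of total RNA. Of 45037 probe sets, 34945 carry 1 symbol in GEO's platform annotation; 932 with several symbols and 9160 with none were left out. A gene is its brightest probe set, the floor is the 40th percentile over all probe sets, and a percentile is the share of probe sets with a lower signal. No further scaling was done. Every Hox gene is accounted for; of the lists of cofactors and regulators the up to 4 strongest members and those below the floor were named, of the other homeobox genes the 4 strongest, and the bordering genes. Other members named, cell type markers included, were chosen after their values were seen. The members and lists were chosen with earlier results of these data known. RefSeq tables (GRCm38.p6) gave gene order and promoter windows. The calculations were tested on simulated data. The floor was also set at percentile 20 and at percentile 60, a gene was also read as the mean log2 signal (pseudocount 1) or the dimmest of its probe sets, and probe sets with a suffix letter were left out in turn. Scripts ran under Python 3.11.15 with pandas 2.3.3, numpy 2.4.6 and matplotlib 3.10.9. The number of arrays limits the precision.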

Additional observations from a re-analysis of the deposited data

Results flagged for a closer look

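Hoxb5os, a transcript from the strand opposite Hoxb5, read 98.5 on its 1 probe set, above the floor of 68.77. It is given here because its probe set names a Hox locus but falls outside the rule for members and enters no count above, and there is no usable control value to set it against. Hoxb5 itself read 81.09.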

How the results depend on the processing

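The count of Hox genes above the floor depended on the floor and the choice of probe set, while their share stayed below that of all genes under each alternative run. With the floor at the 20th percentile (38.75) it was 22 of 33 against 87.53% of all genes, with it at the 60th (119.96) 7 of 33 against 51.63%, and with the dimmest probe set 8 of 33 against 49.67%. It was 10 with the mean log2 signal (62.53% of all genes) and 12 of 32 without suffixed probe sets (68.02%). At the 20th percentile the counts that moved by over 1.5 times were Hoxb 4, Hoxd 5, posterior genes 11 and other homeobox genes 69. At the 60th they were Hoxa 3, Hoxb 0, anterior genes 1, posterior genes 2, TALE cofactors 2 and other homeobox genes 22. With the mean they were Hoxd 0 and anterior genes 1. With the dimmest probe set they were Hoxb 1, Hoxd 0, anterior genes 0, central genes 3, TALE cofactors 3, Polycomb genes 13 and other homeobox genes 27. The Hox median percentile ran from 23.37 with the dimmest probe set to 33.75, and the median of all genes from 39.69 to 61.4. Hoxa5 read 113.72 with the mean and 47.1 without suffixed probe sets, below the floor, and with the mean Hoxa3, Hoxd8 and Hoxc5 fell below it too, at 63.03, 62.74 and 37.77. Of single Hox signals, 6 of 33 moved by over 1.5 times with the mean, 8 of 33 with the dimmest probe set and 2 of 32 without suffixed ones. No paired analysis was possible because each group is 1 array and the control values are not tied to probe sets.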

Other observations

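Beside Hoxb5os, 7 more probe sets name a Hox gene outside the rule, and all 7 lay below the floor. Hoxa11os, the transcript opposite Hoxa11, read 23.0 and 12.7, while Hoxa11 read 83.06. Hoxd3os1 read 55.77 and 31.54. A probe set shared by Hoxb8 and Hoxb7 read 7.28, near the bottom of the array at percentile 0.87, and the 2 shared by Hoxd4 and Hoxd3 read 34.06 and 32.95. They are the only probe sets here with a bearing on Hoxb8 and Hoxd4. The Hoxb7 signal of 17.43 and the Hoxd3 signal of 19.68 on their own probe sets were below the floor as well.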
